A study of Nasonia vitripennis with 39 samples.

Results

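Abdomens and heads of haploid males of the parasitoid wasp Nasonia vitripennis were compared across all measured genes. The members were the 5 abdomen libraries and the 5 head libraries that the labels tag as 1N males (1N, carrying 1 chromosome set), 10 of the 39 libraries in the series, and no measured value was used to choose them. All animals belonged to the Whiting Polyploid Line (strain label WPL, genotype label WPL_LSL_1N for these males), a laboratory line in which polyploidy arose spontaneously, and were sampled 1 day after emergence. As comparisons served the 2N males (5 abdomens and 5 heads) and the 2N females (4 abdomens and 5 heads) of the same line and age, and 3N females were used only for levels. Whether libraries were pooled from several animals, and which abdomens and heads came from 1 body, is not in the labels, and the p-values therefore describe library-to-library spread, which may be technical.

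Males of this haplodiploid species usually develop from unfertilised eggs. A male abdomen holds the testes, the accessory glands, the gut, the fat body and the heart, with muscle and cuticle around them, while a head holds the brain, the compound eyes, the antennae, the mouthparts, and some muscle, fat body and glands. The fat body of insects stores lipid and protein, detoxifies and secretes blood proteins, and the antennae and eyes carry the receptors for odour and light. In bulk tissue such as this, fewer cells of a type and less RNA per cell cannot be told apart.

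RNA was measured by sequencing of poly(A) RNA, and levels are CPM (counts scaled by library size with the TMM method), the unit of all levels unless TPM (transcript abundance, scaled also by gene length) is named. Values per library follow the order B10, B6A, B7, B8 and B9 for abdomens and B1A, B2A, B3, B4A and B5D for heads, as the libraries are named. Totals were 18.2 to 66.2 M estimated counts in abdomens and 16.3 to 41.8 M in heads, and 4 of 5 abdomens (not B6A) but 1 of 5 heads (B3) exceeded 30 M, so depth moved with tissue. The first principal component held 73.4% of the variance and split the tissues, and the second, with 10.2%, set the abdomen B6A apart from the rest. Correlated with its own tissue, a library had a median coefficient of 0.887 for B6A, 0.934 for the head B5D and 0.952 to 0.974 for the others, and 0.655 to 0.729 with the other tissue. Every pair of libraries of 1 tissue differed beyond sampling noise, the closest pair with a chi-square of 25.2 per degree of freedom. A count of 3 corresponds to 0.0561 to 0.207 CPM in an abdomen and 0.0671 to 0.181 CPM in a head.

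Most genes differed between the tissues. Of 12402 genes tested with edgeR's quasi-likelihood test, 8079 (65.1%) passed an adjusted p of 0.05, 3938 of them higher in abdomens (31.8% of genes tested) and 4141 lower in abdomens, that is higher in heads (33.4%). Among these, 2962 were over 2-fold higher in abdomens and 2702 over 2-fold higher in heads, and 1251 and 1132 were over 8-fold higher. In 2606 genes (21% of those tested) all 5 abdomens lay above all 5 heads, and in 2814 (22.7%) all abdomens lay below all heads, 43.7% of genes in all. The median log2 fold change over all genes was -0.02 (abdomen over head, here and below). The remaining 4323 genes did not pass, and 2949 of these differed by less than 1.5-fold. The share of called genes that were higher in abdomens depended on the scaling. Scaling by library totals alone shifted the median log2 fold change of all genes to -0.37 and gave 3066 genes higher in abdomens and 5337 higher in heads, and the TPM values on the log2(TPM + 1) scale shifted it to -0.56 and gave 2432 and 6233. Within depth classes, the 4 deep abdomens and 1 deep head gave 5747 genes and the 1 shallow abdomen and 4 shallow heads gave 5835, each with a lone library assumed to vary like the other groups; a term for deep libraries in the fit gave 7673.

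**Figure D1:**
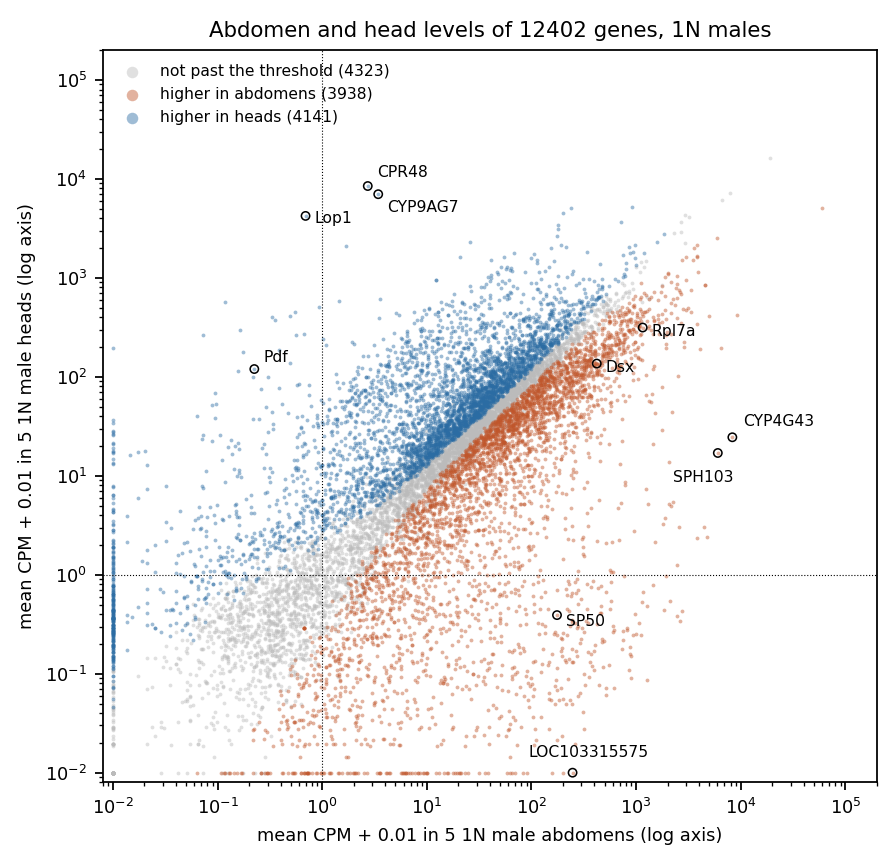
Mean CPM of each of the 12402 genes tested in the 5 1N male abdomens (horizontal, log axis) and the 5 1N male heads (vertical, log axis), each with 0.01 added; orange points were higher in abdomens, blue points higher in heads and grey points not past the threshold, and dotted lines mark 1 CPM. The 3938 orange and 4141 blue points lie on either side of the diagonal, and genes such as Lop1 and LOC103315575 lie at the far edges, near absent from 1 tissue.

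To separate genes near absent from 1 tissue from genes that were only higher in the other, a tissue-specific class was defined as past the threshold, at least 8-fold apart, at a mean of at least 5 CPM in 1 tissue and under 1 CPM in the other. It held 558 abdomen-specific genes (4.5% of those tested) and 170 head-specific genes (1.37%). At least 8-fold and 5 CPM were met by 906 genes of abdomens and 765 of heads, so 558 of 906 were under 1 CPM in heads and 170 of 765 were under 1 CPM in abdomens. Without B6A the classes held 494 and 192 genes. At the border, LOC116738572 lay just inside the abdomen-specific class with 37.6 CPM in abdomens and 0.994 CPM in heads, and LOC100123778 just outside with 48.7 and 1.003 CPM. On the head side LOC100121011 lay just inside with 0.998 CPM in abdomens and 239 CPM in heads, and LOC100118543 just outside with 1.01 and 18.4 CPM.

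An opsin, a clock neuropeptide and a channel of the visual pathway were near absent from abdomens and well detected in heads. Lop1, an opsin, the light-absorbing protein of photoreceptors, had 2.14, 0, 0.307, 0 and 0.972 CPM in abdomens against 6739, 5797, 2592, 3411 and 2592 CPM in heads (log2 fold change -12.46 ± 0.88 SE, adjusted p = 1.38e-12). Every head exceeded every abdomen by over 3 orders of magnitude. Pdf, the pigment-dispersing neuropeptide by which clock neurons signal, had 0.674, 0, 0.0682, 0.329 and 0 CPM in abdomens and 152, 124, 115, 103 and 106 CPM in heads (log2 fold change -8.94 ± 0.64 SE, adjusted p = 5.88e-14), with the heads close together and 2 abdomens at 0. HisCl1, a chloride channel opened by histamine, the transmitter of insect photoreceptors, had no count in any abdomen and 34.3, 40.9, 13.5, 20.1 and 19.2 CPM in heads, at least 1357-fold lower in abdomens when 3 counts over the group are set as the floor. Without B10, the abdomen with the highest trace of both, the log2 fold change of Lop1 was -13.44 and that of Pdf -10.05.

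Of the 22 neuronal receptors and channels tested, 20 fell in abdomens and 2 rose, where 33.4% of all genes fell and 31.8% rose, with a median log2 fold change of -3.63 against -0.02 over all genes. Against a fold of 2, 17 of them fell, where 2019 of all 12402 genes did. Dop2, a dopamine receptor, had 0.315, 0, 0, 0 and 0.411 CPM in abdomens and 25.7, 28.4, 21.3, 29.4 and 3.01 CPM in heads (log2 fold change -6.91 ± 0.76 SE, adjusted p = 2.29e-09); the head B5D was far below the other 4 heads but above all abdomens, and without B9 the value was -7.71. nAChRa2, a subunit of the nicotinic acetylcholine receptor, the main excitatory receptor of the insect brain, had 3.55, 1.03, 1.88, 1.798 and 1.25 CPM in abdomens against 51.05, 74.2, 48.1, 70.8 and 58.6 CPM in heads (log2 fold change -4.97 ± 0.44 SE, adjusted p = 9.85e-12), with no overlap. Of the 12 nicotinic subunits in the list 11 fell in abdomens; after nAChRa2 they ran from nAChRa11 (log2 -4.83, at 2.95 ± 1.16 CPM in abdomens and 83.6 ± 11.98 CPM in heads, mean ± SD, n = 5 each) to nAChRb3 (log2 -0.55). The call of nAChRb3 was lost without any of B10, B8, B9, B1A, B4A and B5D, with log2 values of -0.35 to -0.57. The voltage-gated sodium channel Para, which carries the action potential, was lower in abdomens at 9.77 ± 2.51 CPM against 254 ± 94.6 CPM in heads (SD, n = 5 each; log2 -4.704). Syt1, the calcium sensor of synaptic vesicles, remained well detected in abdomens, at 206 ± 44.7 CPM against 798 ± 236 CPM in heads (log2 -1.96). The 2 members that rose were CLGC1 (34.7 ± 11.7 CPM in abdomens, 2.83 ± 1.36 CPM in heads; log2 3.61) and nAChRa9, which had 0.786 ± 0.662 CPM in abdomens and no count in heads.

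The adipokinetic hormone receptor and a paralogous peptide system differed in opposite directions. Akhr, the receptor of adipokinetic hormone, which mobilises stored lipid and sugar from the fat body, had 368, 233, 334, 356 and 306 CPM in abdomens and 33.6, 35.6, 49.3, 33.9 and 59.7 CPM in heads (log2 fold change 2.91 ± 0.45 SE, adjusted p = 7.49e-07), and no abdomen reached down to a head. Acpr, the receptor of the adipokinetic hormone/corazonin-related peptide, had 5.35, 2.96, 2.796, 3.8996 and 5.27 CPM in abdomens against 131, 145, 75.1, 132.02 and 163 CPM in heads (log2 fold change -4.98 ± 0.37 SE, adjusted p = 1.38e-13), and its ligand ACP had 0.3596, 1.03, 0, 0.836 and 0.842 CPM in abdomens against 32.2, 28.4, 32.8, 22.7 and 37.9 CPM in heads (log2 fold change -5.67 ± 0.72 SE, adjusted p = 2.58e-08). The ecdysone receptor Ecr did not pass the test, at 58.2 ± 10.1 CPM in abdomens and 53.4 ± 8.79 CPM in heads (log2 0.12, adjusted p = 0.512), although on the log2(TPM + 1) scale, where the median of all genes shifted to -0.56, it was called lower in abdomens at -0.65.

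Odorant receptors, the ligand-gated channels of antennal neurons, mostly had no call or were higher in heads. The list had 214 members, of which 143 passed the filter on low counts, and of these 65 were higher in heads, 6 higher in abdomens and 72 did not pass the test, where 33.4% of all genes were higher in heads and 31.8% in abdomens. The filter ran over all 39 libraries, so a member could enter through any group in which it was high, and the counts describe the tested members alone. Fitted on 1N males alone, 42 members were tested, of which 11 were higher in heads and 3 in abdomens. Of the 11093 genes tested in that fit, 3273 were higher in heads and 3262 in abdomens. The list's median log2 fold change there was -0.68, against -1.999 in the fit of all libraries. 47 of the 143 had no count in any abdomen, and 1 had none in any head. The same counts over all genes tested were not made. The filter could be passed through heads, so these counts are no measure of a tissue difference. Or1 had the clearest level, 0, 2.28, 0, 0 and 0.524 CPM in abdomens and 33.9, 15.9, 60.99, 72.01 and 233 CPM in heads (log2 fold change -7.65 ± 1.27 SE, adjusted p = 3.08e-06), with the head B5D far above the others; the value was -9.03 without B6A and -6.81 without B5D. Or36 (7.91 ± 11.3 CPM in abdomens, 0.604 ± 0.409 CPM in heads; log2 3.69) and Or266 (log2 3.74) were among the 6 that rose in abdomens, at log2 2.27 and 2.69 without B6A. Of 46 gustatory receptors, the contact taste receptors, 20 were tested; 6 fell and 4 rose in abdomens, where 33.4% of all genes fell and 31.8% rose, and Gr2 was the most abundant of those that rose, at 17.4 ± 4.53 CPM in abdomens and 2.43 ± 1.26 CPM in heads (log2 2.84). Without B6A 2 gustatory receptors rose and 7 fell, and in 1N males alone 10 were tested, of which 3 rose and 1 fell. Near-identical copies in these families share reads, which the authors' estimated counts divide among them, so single members are uncertain.

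Heads also held a few very abundant cuticle and cytochrome P450 genes. CPR48, a cuticle protein with the chitin-binding Rebers and Riddiford motif, had 8.79, 0, 0.205, 0 and 4.58 CPM in abdomens and 17529.7, 5498, 7215, 5898 and 6208 CPM in heads (log2 fold change -11.55 ± 1.83 SE, adjusted p = 3.5e-06), the head B1A standing high. On the TPM scale it was the most abundant gene of all 5 heads, at 10.4 TPM in abdomens and 51194 TPM in heads on average. CYP9AG7, a cytochrome P450, a family of oxidising enzymes that act on toxins, hormones and pheromones, had 13.01, 0, 0.102, 0 and 3.98 CPM in abdomens and 5459, 6547, 12838, 5816 and 4358 CPM in heads (log2 fold change -10.96 ± 1.17 SE, adjusted p = 6.5e-10). For Lop1, CPR48 and CYP9AG7 alike the abdomens B10 and B9 held the highest traces and B6A and B8 none. Without B10 the log2 fold change of CPR48 was -12.65 and that of CYP9AG7 -12.58. CYP4AB15 had 0.337, 0, 0.341, 0.836 and 0.374 CPM in abdomens and 34.9, 17.9, 135, 64.7 and 131.7 CPM in heads (log2 fold change -7.53 ± 0.997 SE, adjusted p = 5.16e-08), with a wide spread among heads and no overlap. Genes without a descriptive symbol were as distinct. LOC100115165 had 2.76, 1.31, 1.09, 1.62 and 1.53 CPM in abdomens and 2494, 2790.3, 1902, 1812 and 1476 CPM in heads (log2 fold change -10.28 ± 0.55 SE, adjusted p = 4.32e-17). LOC107981322 had 0, 0, 0.102, 0 and 0.4301 CPM in abdomens and 679, 631, 624, 481 and 460.2 CPM in heads (log2 fold change -12.05 ± 0.77 SE, adjusted p = 2e-14). LOC100120898 had no count in abdomens and 191, 239, 117, 117 and 312 CPM in heads, at least 10724-fold lower in abdomens against a floor of 3 counts over the group. LOC100113557, among the 6 genes of highest TPM in heads that passed the test, had 18.1, 65.99, 6.65, 8.91 and 4.6004 CPM in abdomens and 357, 121, 513, 205 and 6984 CPM in heads (log2 fold change -6.31 ± 1.12 SE, adjusted p = 8.38e-06), and a single head, B5D, held most of it. Its log2 fold change was -3.86 without B5D and -7.42 without B6A, and that of LOC107981322 was -14.397 without B9.

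**Figure D2:**
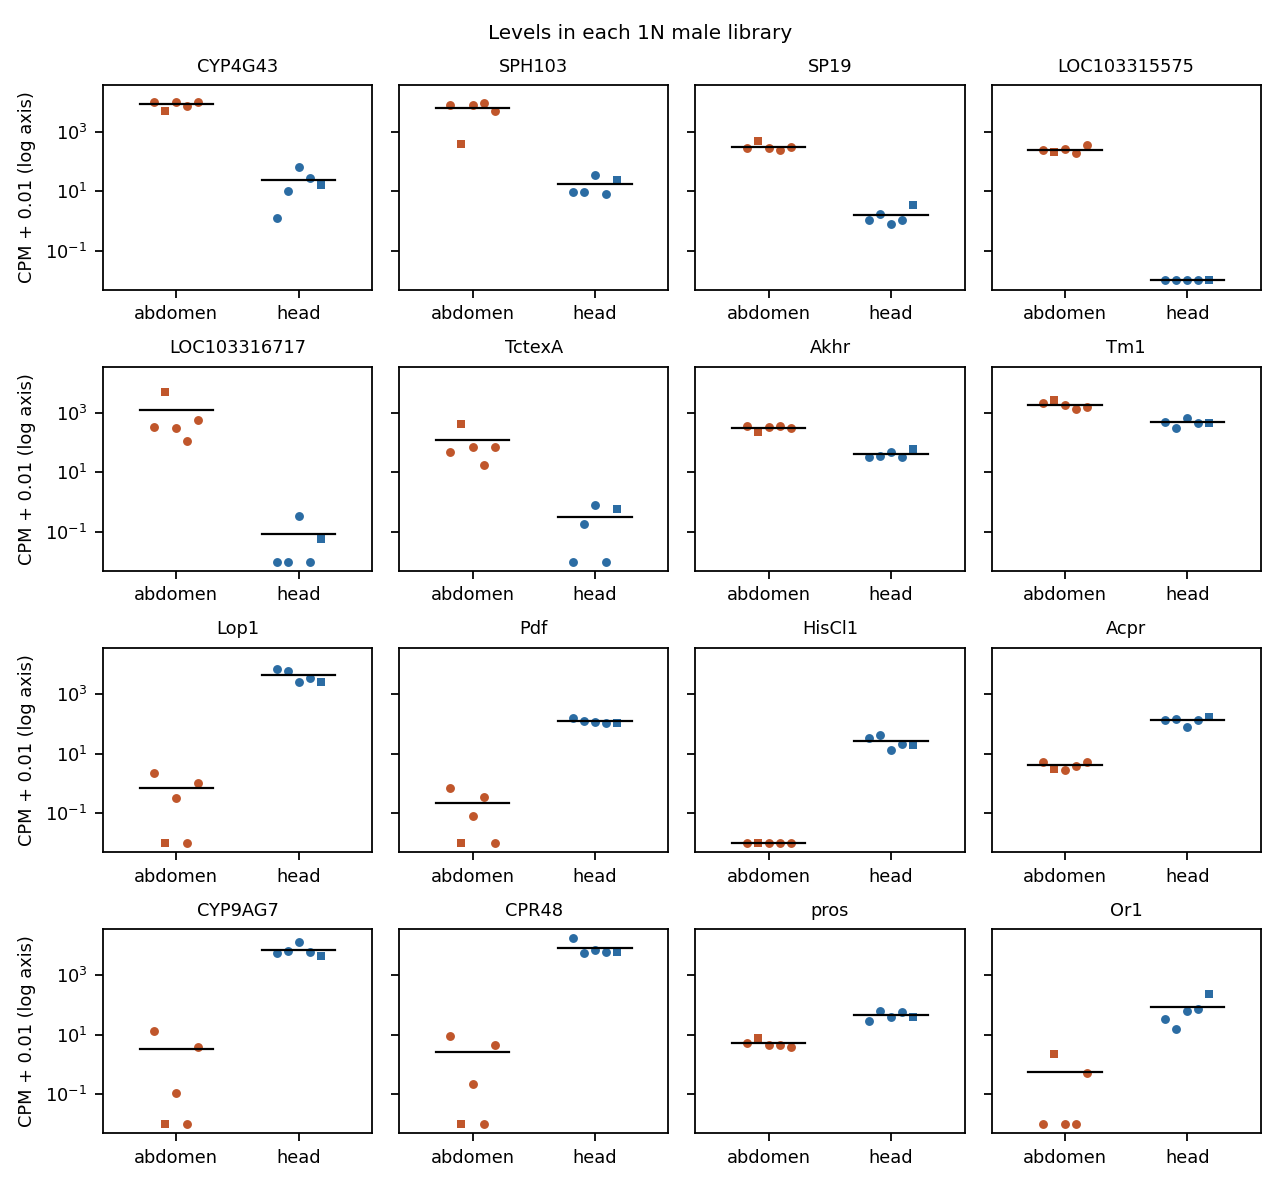
CPM + 0.01 (log axis) of 16 genes in each 1N male library, abdomens left (orange) and heads right (blue); squares mark B6A and B5D and lines the group means. The first 8 genes lie higher in all 5 abdomens and the last 8 higher in all 5 heads; SPH103 is low and LOC103316717 and TctexA are high in B6A.

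Most of the cytochrome P450, glutathione transferase and carboxylesterase genes tested were higher in abdomens. Of 42 cytochrome P450 genes tested, 29 were higher in abdomens, 7 higher in heads and 6 did not pass, with a median log2 fold change of 1.96 against -0.02 over all genes. Of all genes tested 31.8% were higher in abdomens and 33.4% in heads. CYP4G43, of the subfamily that in Drosophila makes the last step of cuticular hydrocarbon synthesis, had 9756, 4901, 9875, 7439 and 9652 CPM in abdomens and 1.21, 10.4, 67.2, 27.4 and 16.3 CPM in heads (log2 fold change 8.402 ± 1.01 SE, adjusted p = 6.98e-09). The heads ranged widely, yet the lowest abdomen, B6A, was far above the highest head. CYP4G44, of the same subfamily, had 787 ± 181 CPM in abdomens and 8.56 ± 8.98 CPM in heads (SD, n = 5 each; log2 6.503). CYP6AS33 had 34.3, 8.96, 38.7, 31.6 and 44.2 CPM in abdomens and no count in heads, at least 1449-fold higher in abdomens against a floor of 3 counts over the group. Glutathione transferases, which couple glutathione to reactive compounds, and carboxylesterases, which split esters, followed the same direction: of 29 tested, 21 rose and 5 fell in abdomens (median log2 2.17), against 31.8% and 33.4% of all genes. GstD1 (1631 ± 481 CPM in abdomens, 388 ± 59.8 CPM in heads; log2 2.07) and GstT2 (1649 ± 533 and 347 ± 143 CPM; log2 2.25) were abundant in both. CCE-A4 (63.5 ± 15.4 and 0.662 ± 0.694 CPM; log2 6.42) was abdomen-specific, and CCE-B6 (0.594 ± 0.448 and 84.5 ± 77.1 CPM; log2 -7.01) was head-specific. Without B3 the log2 fold change was 9.23 for CYP4G43, 7.42 for CYP4G44, 7.46 for CCE-A4 and -6.32 for CCE-B6. In the shallow libraries alone, B6A was the only abdomen. There the median log2 fold change was 0.89 for cytochrome P450 genes and 1.27 for glutathione transferases and carboxylesterases, against -0.25 over all genes.

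Serine proteases and their homologues act in digestion, in the blood's defence cascades and in seminal fluid of insects. Of 51 members 40 were tested, 20 rose in abdomens, 3 fell and 17 did not pass, and 9 of the 20 were abdomen-specific, where 31.8% of all genes rose, 33.4% fell and 4.5% were abdomen-specific. SPH103 had 7894, 381, 7949.6, 9025 and 4969.8 CPM in abdomens and 9.61, 9.68, 34.8, 8.04 and 22.8 CPM in heads (log2 fold change 8.47 ± 1.03 SE, adjusted p = 9.52e-09), with B6A far below the other 4 abdomens but above every head. SP50 had 217, 16.9, 225, 247 and 172 CPM in abdomens and 0.302, 0.0566, 0.93998, 0.129 and 0.478 CPM in heads (log2 fold change 8.66 ± 1.04 SE, adjusted p = 7.17e-09), again with B6A lowest, and without B3 the value was 9.48. SP19 had 271, 472, 272, 234 and 293 CPM in abdomens and 1.03, 1.64, 0.783, 1.07 and 3.44 CPM in heads (log2 fold change 7.62 ± 0.49 SE, adjusted p = 3.92e-15), and here B6A was highest. SP120 went the other way, at 6.49 ± 4.26 CPM in abdomens and 119 ± 36.96 CPM in heads (log2 -4.17). In the shallow libraries alone, where B6A was the only abdomen, 8 serine proteases rose and 7 fell.

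In the yellow and royal jelly family, secreted proteins of which some act in pigmentation, 8 of 16 tested rose in abdomens, 2 fell and 6 did not pass. Of all genes tested 31.8% rose and 33.4% fell. Y-x1c had 933, 627, 703, 514 and 851 CPM in abdomens and 5.92, 4.42, 7.32, 4.34 and 4.49 CPM in heads (log2 fold change 7.09 ± 0.53 SE, adjusted p = 1.9e-13). The royal jelly-like Mrjpl5 had 342 ± 126 CPM in abdomens and 30.3 ± 20.4 CPM in heads (log2 3.49), and Y-y, the namesake of the family, was higher in heads, at 0.0699 ± 0.121 CPM in abdomens and 3.82 ± 1.24 CPM in heads (log2 -5.604). Of 35 cuticle proteins and chitinases tested, 13 were higher in abdomens and 11 higher in heads, shares near the 31.8% and 33.4% of all genes. CPR19 (2499.6 ± 546 CPM in abdomens, 102 ± 21.8 CPM in heads; log2 4.62) and the chitinase Cht5 (738 ± 203 and 22.5 ± 21.6 CPM; log2 5.04) were higher in abdomens, against CPR48 and CPR35 (39.8 ± 18.3 and 170.2 ± 189.9 CPM; log2 -2.095) in heads. The list's median was 0.29, but -0.05 with library totals alone and -0.37 on the log2(TPM + 1) scale. Without B5D the log2 fold change of Cht5 was 5.84 and that of CPR35 -1.11, and without B9 that of Y-y was -8.35.

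The most abundant transcripts of abdomens had no descriptive symbol. LOC100114997 was the gene of highest TPM in 4 of 5 abdomens, at 28083, 6954, 30274, 51402 and 39657 TPM in abdomens and 3721, 4513, 7086, 3833 and 1869.5 TPM in heads. In CPM its log2 fold change was 3.55 (adjusted p = 4.94e-05), without overlap, and B6A was lowest of the abdomens. LOC100116930 was the gene of highest TPM in B6A and had 8315, 12708, 6417, 8537 and 9653 CPM in abdomens and 273, 241, 538, 192 and 840.2 CPM in heads (log2 fold change 4.45 ± 0.56 SE, adjusted p = 2.09e-08). LOC100422735 had 12546, 5966, 10062, 10366 and 5886 TPM in abdomens and was at 0 in 4 of 5 heads, with 1 count in the head B3. The 3 abdomen-specific genes of highest mean CPM, picked after their values were seen, were LOC100679870, LOC100119680 and LOC100117783. LOC100679870 had 2962, 2893, 2769.9, 1978 and 3252 CPM in abdomens and 0, 0, 1.097, 0 and 1.004 CPM in heads. LOC100119680 had 2764, 2652, 2543, 1801 and 3404 CPM in abdomens and 0, 0, 0.5595, 0 and 1.099 CPM in heads. LOC100117783 had 2392, 2164, 2322, 1895 and 3498 CPM in abdomens and 0.181, 0.113, 0.783, 0.301 and 0.478 CPM in heads. All 3 were even over the 5 abdomens, B6A included. LOC103315575 had 239, 203, 258, 188 and 348 CPM in abdomens and no count in heads, at least 10676-fold higher in abdomens against a floor of 3 counts over the group.

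Within abdomens the specific genes were sorted into 2 blocks, by whether the library B6A was highest or lowest. Of the 558 abdomen-specific genes, 330 were higher in B6A than in each of the other 4 abdomens (median ratio of B6A to their mean 8.52) and 170 were lower than in each (median ratio 0.149), leaving 58 within their range. LOC103316717 belonged to the first block, with 336, 5014, 308, 112 and 563 CPM in abdomens and 0, 0, 0.336, 0 and 0.0478 CPM in heads (log2 fold change 13.38 ± 1.16 SE, adjusted p = 1.75e-11; log2 11.41 without B6A). So did TctexA, a light chain of the dynein motor, with 47.5, 419.5, 73.2, 16.97 and 71.3 CPM in abdomens and 0, 0.1698, 0.783, 0 and 0.574 CPM in heads (log2 fold change 8.47 ± 0.98 SE, adjusted p = 3.29e-09; still called without B6A, at log2 7.201). Without the head B3 the values were 16.297 for LOC103316717 and 9.34 for TctexA. Other members with a descriptive symbol were the respiratory chain subunits Cox6c and Cox7a1, Cyc1l, CPR47, cycB and Or36. The second block held 16 genes with a descriptive symbol, of which 9 were serine proteases (SP9, SP43, SP49, SP50, SP72, SP102, SP122, SP128 and SP132), together with the gut transcription factor Cad, the prophenoloxidase ppo1, CCE-E7, CPLCP3, CPR7, CYP4BW5 and CYP6AS33. The median level of the first block was 14.5, 137, 24.7, 7.80 and 23.1 CPM in the 5 abdomens, and that of the second 33.4, 4.07, 28.1, 37.9 and 31.6 CPM. B8, at the other end, was the lowest of the 5 abdomens in 325 of the 558 genes. The blocks were defined on these libraries, so they are a description. Over all genes tested, the shares with B6A highest or lowest, or with B8 lowest, were not counted. B6A also stood apart in its correlation over all genes, so the blocks may not be particular to the specific genes. The floor of 5 CPM was set on a mean that included B6A, so a gene could enter the class through B6A alone. Such genes raise the size of the first block, its ratio and the share of TPM in B6A. Without B6A the class held 494 genes. In the 5 abdomens of 2N males, which were not used to define them, medians were 13.2 to 24.6 CPM for the first block. For the second block they were 18.4 to 27.8 CPM. The 2N abdomen B19 had both the highest first-block median (24.6 CPM) and the lowest second-block median (18.4 CPM) of these 5. B18 had the lowest first-block median (13.2 CPM), with 26.85 CPM for the second. In no 2N male abdomen were the 2 medians as far apart as in B6A. Abdomen-specific genes together took 19.6% of all TPM in B6A and 5.27% to 7.70% in the other abdomens, against 0.017% to 0.038% in heads; head-specific genes took 0.005% to 0.009% in abdomens and 2.25% to 2.39% in heads.

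**Figure D3:**
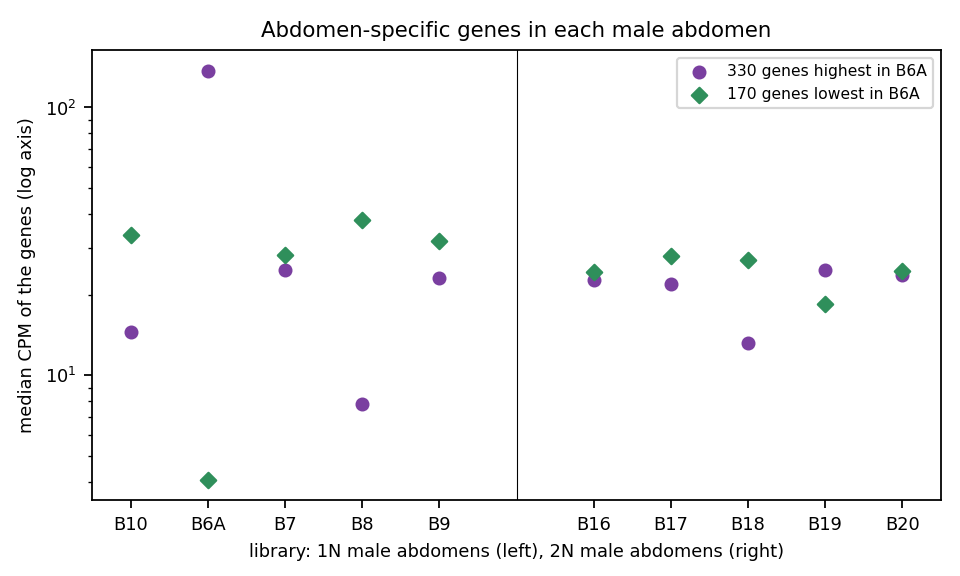
Median CPM (log axis) of the 330 abdomen-specific genes that were highest in B6A (purple circles) and the 170 that were lowest there (green diamonds), in each 1N male abdomen (left) and 2N male abdomen (right). In B6A the medians are 137 and 4.07 CPM, while in the 2N male abdomens the 2 sets lie close together.

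Most respiratory chain genes differed by small folds, and the few cytosolic ribosomal protein genes with a descriptive symbol were higher in abdomens. Of 66 respiratory chain and ATP synthase subunits tested, 29 fell in abdomens, 3 rose and 34 did not pass (median log2 -0.27), where 33.4% of all genes fell and 31.8% rose. Ndufa8 (124 ± 17.1 CPM in abdomens, 322 ± 83.3 CPM in heads; log2 -1.38) and Ndufv1 (318 ± 39.96 and 773 ± 288 CPM; log2 -1.28), both of complex I, had the largest falls of the list. The count depended on scaling, with 57 falls for library totals alone and 63 on the log2(TPM + 1) scale. Under these scalings 5337 of 12402 and 6233 of 11630 of all genes tested fell. The 3 that rose were Cox6c, Cox7a1 and Cyc1l. Cox6c had 1.17, 27.8, 6.205, 1.39 and 5.12 CPM in abdomens and 0, 0, 0.0895, 0 and 0 CPM in heads (log2 fold change 8.11 ± 1.34 SE, adjusted p = 1.11e-05), B6A being far above the other abdomens. The log2 fold change of Cox6c was 6.88 without B6A. Without B3 no head had a count of Cox6c, so no size is given. Of 4 mitochondrial ribosomal proteins tested, 2 fell in abdomens, 0 rose and 2 did not pass (median log2 -0.36). All 4 cytosolic ribosomal proteins with a descriptive symbol rose, by log2 fold changes of 1.51 to 2.02 (median 1.78). Rpl7a, for example, had 1312, 1039, 1172, 1248 and 1015 CPM in abdomens and 306, 243, 437, 233 and 357 CPM in heads (log2 fold change 1.88 ± 0.15 SE, adjusted p = 7.29e-13). Of 3 muscle genes, tropomyosin Tm1, which regulates contraction on the thin filament, had 2106, 2669, 1862, 1313 and 1542 CPM in abdomens and 509, 315, 647, 439 and 458 CPM in heads (log2 fold change 2.003 ± 0.29 SE, adjusted p = 3.27e-07), and the Z-disc protein Zasp66 also rose (322 ± 113 and 69.1 ± 40.4 CPM; log2 2.22). Tm2 did not pass the test, at 57.1 ± 3.495 CPM in abdomens and 60.6 ± 18.02 CPM in heads (log2 -0.09, adjusted p = 0.569).

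Cell cycle genes differed in both directions, and some markers of dividing or germ cells were near absent from 1 or both tissues. Of 16 cell cycle genes, 4 rose and 9 fell in abdomens, where 31.8% of all genes rose and 33.4% fell. Cenp-a, the histone of centromeres, had 5.26, 5.999, 3.65, 6.41 and 7.07 CPM in abdomens and 20.96, 39.3, 21.1, 36.1 and 48.4 CPM in heads (log2 fold change -2.54 ± 0.25 SE, adjusted p = 8.36e-11), and cycB, the cyclin of mitotic entry, had 5.45 ± 5.65 CPM in abdomens and 0.172 ± 0.17997 CPM in heads (log2 4.93). Without B6A the log2 fold change of cycB was 4.103. On the log2(TPM + 1) scale 1 cell cycle gene rose and 9 fell, where 2432 of all 11630 genes rose and 6233 fell. Of the meiosis genes reported here, Hop2 (log2 2.54) and Gaj (log2 1.12) rose, at means of 1.82 and 10.8 CPM in abdomens, and neither passed in the deep libraries alone. Of 14 genes of cilia and dynein, 4 rose and 8 fell, and the rise of TctexA stood beside falls such as that of kinesin-2B, a motor of transport in cilia and axons (24.5 ± 14.2 CPM in abdomens, 189 ± 17.9 CPM in heads; log2 -2.96). The germ plasm genes oskar and nanos, markers of the ovary that males lack, did not pass the test. oskar had 4.47, 1.72, 0.989, 1.75 and 2.52 CPM in abdomens and 4.53, 3.91, 4.23, 3.91 and 1.72 CPM in heads (adjusted p = 0.275), which overlap, against 1077 ± 75.2 CPM in 2N female abdomens (SD, n = 4). nanos had 10 counts over the 5 abdomens and 2 over the 5 heads, against 118 ± 29.97 CPM in 2N female abdomens.

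The 3 sex determination genes tested all differed between tissues, where 65.1% of all genes did. Dsx (doublesex), the transcription factor at the end of the sex determination cascade, had 445, 423, 439, 421 and 377 CPM in abdomens and 122, 127, 119, 119 and 193 CPM in heads (log2 fold change 1.63 ± 0.34 SE, adjusted p = 8.06e-05), with the abdomens tight and the head B5D above the other heads. Tra (transformer), the splicing factor that is active in females, had 42.6, 33.8, 24.1, 43.1 and 27.8 CPM in abdomens and 83.9, 84.6, 66.7, 64.4 and 157 CPM in heads (log2 fold change -1.41 ± 0.26 SE, adjusted p = 1.44e-05). Fru (fruitless), a regulator of male courtship in Drosophila, had 30.9, 19.5, 45.9, 49.7 and 53.99 CPM in abdomens and 33.4, 102, 89.6, 106 and 106 CPM in heads (log2 fold change -1.13 ± 0.23 SE, adjusted p = 7.84e-05), and the low head B1A lay within the range of abdomens. Gene-level values do not tell the sex-specific splice forms apart. The maintenance DNA methyltransferase Dnmt1a rose in abdomens (51.9 ± 5.299 CPM against 28.6 ± 9.35 CPM in heads; log2 fold change 0.86 ± 0.17 SE, adjusted p = 4.22e-05), while Mbd, a reader of methylated DNA, fell (22.02 ± 3.99 CPM against 35.3 ± 1.19 CPM in heads; log2 fold change -0.68 ± 0.14 SE, adjusted p = 0.000102). The call of Dnmt1a was lost on the log2(TPM + 1) scale (log2 0.20). Against a fold of 2 neither Dnmt1a nor Mbd was called, and 1 sex determination gene was higher in abdomens and 1 in heads.

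Few transcription factors of body patterning carried a descriptive symbol. Cad (caudal), which patterns the posterior and the hindgut in insects, had 10.3, 2.96, 9.21, 5.65 and 8.96 CPM in abdomens and 0.242, 0.113, 0, 0 and 0.239 CPM in heads (log2 fold change 6.18 ± 0.96 SE, adjusted p = 1.06e-06). Scr, the Hox gene of the labial and first thoracic segments and the only Hox gene with a matched symbol, had 0, 1.79, 0.75005, 0.253 and 0.168 CPM in abdomens and 1.99, 3.17, 4.14, 2.36 and 4.97 CPM in heads (log2 fold change -2.57 ± 0.83 SE, adjusted p = 0.00842). pros (prospero), a factor of neural and photoreceptor cell fate in Drosophila, had 5.37, 7.72, 4.398, 4.46 and 3.85 CPM in abdomens and 27.9, 61.5, 40.6, 58.3 and 39.5 CPM in heads (log2 fold change -3.15 ± 0.31 SE, adjusted p = 1.38e-10). Of 13 patterning factors 3 rose in abdomens (Cad, Eve and hairy), 5 fell and 5 did not pass, where 31.8% of all genes rose and 33.4% fell. The log2 fold change of Cad was 6.76 without B5D and that of Scr -3.54 without B6A. In the shallow libraries alone, where B6A was the only abdomen, that of Scr was -0.84. Among 7 immunity genes, ppo1, a prophenoloxidase of the melanisation response, rose (8.46 ± 3.11 CPM in abdomens, 0.586 ± 0.471 CPM in heads; log2 3.81), as did the recognition protein Gnbp1-2 (log2 2.43) and the pathway adaptor Imd (log2 0.92). The defensin LOC100121630 fell (1.38 ± 0.745 CPM in abdomens, 27.7 ± 11.8 CPM in heads; log2 -4.34), as did ppo3. Of 3 hexamerins, storage proteins of the fat body, Hex70b rose (29.4 ± 33.3 CPM in abdomens, 3.604 ± 0.594 CPM in heads; log2 3.02, and 2.04 without B6A). Their summed level was 103.5 CPM in B6A and 15.8 to 34.9 CPM in the other abdomens, against 8.297 to 15.3 CPM in heads. Hex109 passed (log2 1.06, adjusted p = 0.0243) but its call was lost without B6A, B1A or B4A, in thinned counts and with library totals alone, and Hex83 did not pass (log2 -0.24).

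**Figure D4:**
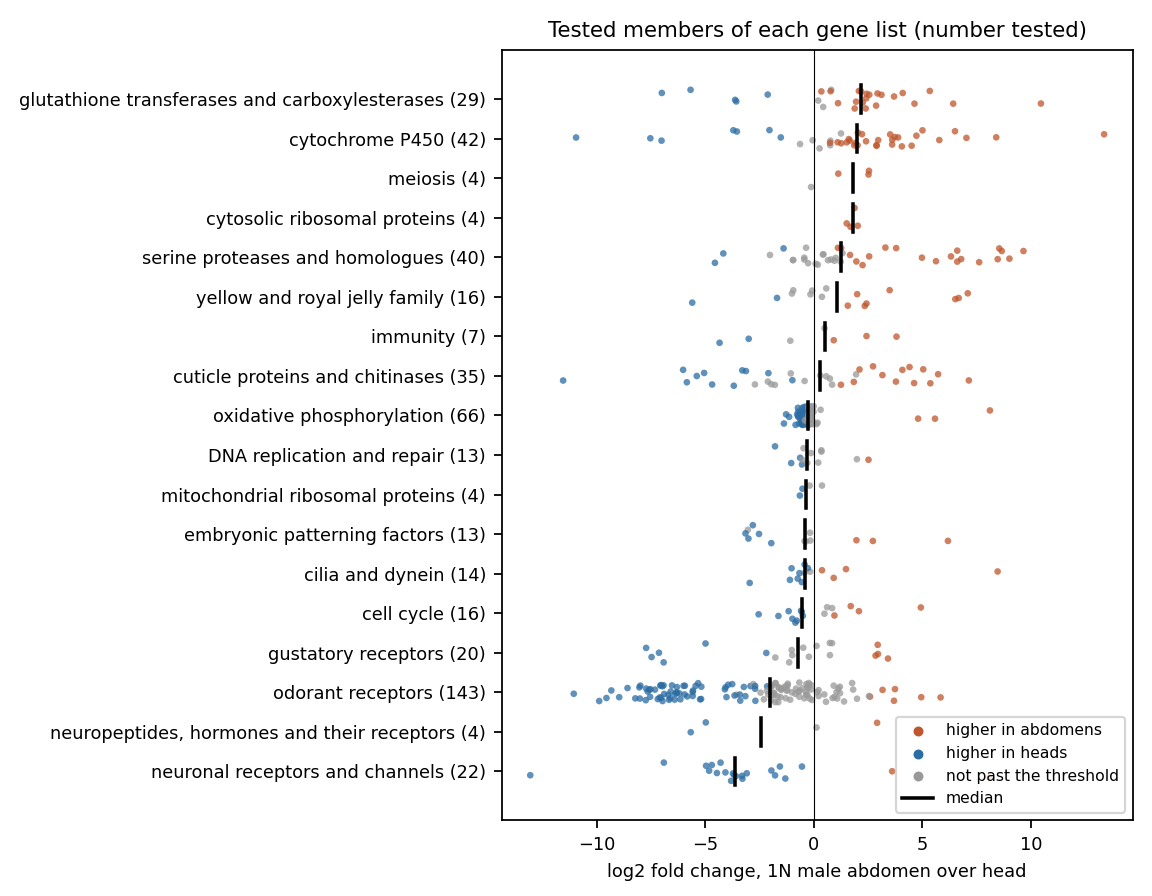
Log2 fold change (1N male abdomen over head) of each tested member of the gene lists with at least 4 tested members, as points coloured by direction where past the threshold, with the list's median as a bar. Most neuronal genes lie left of 0 (20 of 22 higher in heads), most cytochrome P450 genes right of it (29 of 42 higher in abdomens), and oxidative phosphorylation lies close to 0 with 3 exceptions.

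The tissue-specific genes were also described by length, biotype and position, none of them a criterion of the class. CPM is not scaled by gene length, so the cut-offs of 5 and 1 CPM make membership depend on length. Relative to the median over genes of the length that TPM and counts imply, abdomen-specific genes had a median of 0.674 and head-specific genes 0.734, against 0.956 over all genes tested; all called genes had medians of 0.831 (higher in abdomens) and 1.23 (higher in heads). Long noncoding RNA genes were near their share of all genes tested (4.62%), at 34 of 558 abdomen-specific genes (6.09%) and 10 of 170 head-specific genes (5.88%). In the gene order of the RefSeq annotation (assembly Nvit_psr_1.1), 126 of the 558 abdomen-specific genes (22.6%) were immediate neighbours of another, in 56 runs, 10 of them of 3 or more genes, and 13 of 168 placed head-specific genes (7.74%) lay in 6 runs. The classes held 3.89% and 1.17% of all placed genes, and members of a larger class meet more often by chance, so the shares do not compare the classes. The longest run had 5 genes, LOC100679373, LOC100118025, LOC116417152, LOC107981073 and LOC103315964. LOC100119680 and LOC100679870 lay in a run of 4 with LOC100679935 and LOC100679833. Neighbours can be duplicated genes that share reads.

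The same contrast in 2N males, made with other libraries, gave nearly the same genes. Of the 3938 genes higher in 1N abdomens, 3498 (88.8%) were also called higher in 2N male abdomens (86.9% of the 4025 called there, which are 32.5% of genes tested), and 3 were called lower. Of the 4141 genes higher in 1N heads, 3560 (86%) were also called higher in 2N male heads (87.4% of 4071), and 4 the opposite. Across the 12402 genes the log2 fold changes had a Pearson correlation of 0.921 and a Spearman correlation of 0.916, a description over genes that share 1 fit and are not independent. By the same definition 468 of the 558 abdomen-specific genes (83.9%; 87.2% of the 537 of 2N males) and 128 of the 170 head-specific genes (75.3%; 79% of 162) were specific in 2N males too. Examples lay close: Akhr had a log2 fold change of 2.91 in 1N and 3.55 in 2N males, nAChRa2 -4.97 and -4.76, and Rpl7a 1.88 and 1.92.

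The test of the difference itself, the tissue difference of 1N males minus that of 2N males, called 6 genes (0.0484%), while 805 genes had an unadjusted p under 0.05. DESeq2 called 43 and a fit of males alone 1, and the count was 3 without B1A, B2A or B13 and 9 without B6A, the extremes over single libraries left out. Kr (Krüppel), a gap gene and zinc finger factor, had 1.71, 1.59, 0.273, 0 and 0.224 CPM in 1N abdomens and 3.32, 9.397, 4.23, 7.44 and 4.97 CPM in 1N heads, while 2N males had no count in any abdomen and 5.59 to 11.2 CPM in heads (adjusted p = 0.000375). Where a group had no count, as here, the size of the difference depends on the prior count and is not given. LOC100107367 was present in 1 of 5 1N abdomens, at 3 counts, and in all 5 2N male abdomens at 0.228 to 1.62 CPM (difference of log2 fold changes -5.23 ± 0.82 SE, adjusted p = 0.00101). LOC100115513 had no count in 1N abdomens and 0.162 to 0.835 CPM in 2N male abdomens (adjusted p = 0.00062). LOC100115642 rested on 1 library, the 2N male abdomen B17, at 462 CPM where the other 4 had 3.54 to 7.11 CPM (difference -6.98 ± 1.39 SE, adjusted p = 0.038). LOC107981331 had 47.7, 279.9, 49.3, 24.6 and 50.01 CPM in 1N abdomens and 77.9, 21.003, 2.17, 16.5 and 23.995 CPM in 1N heads, against 40.7 to 69.3 CPM in 2N male abdomens and 0.829 to 2.77 CPM in 2N male heads (difference -3.89 ± 0.797 SE, adjusted p = 0.0494). LOC116416681 was under 1 CPM in every male library, with no count in 2N male abdomens (adjusted p = 0.0266). With each of the 20 male libraries left out in turn, Kr, LOC100107367 and LOC100115513 were called 20 times, LOC116416681 15 times, LOC100115642 7 times and LOC107981331 4 times. Without B17 the difference of LOC100115642 was -2.70 (adjusted p = 0.367).

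Set against 2N females, the usual ploidy of that sex, the tissue difference of 1N males was mostly different. The difference of the differences passed the threshold in 9152 genes (73.8%), higher in 1N males in 4929 (39.7%) and lower in 4223 (34.1%). Of the 3938 genes higher in 1N male abdomens, 1581 (40.1%) were also called higher in 2N female abdomens and 1371 (34.8%) were called lower there. Of the 4141 genes higher in 1N male heads, 2349 (56.7%) were also called higher in 2N female heads and 1249 (30.2%) the opposite. Of the abdomen-specific genes, 500 of 558 were under 1 CPM in 2N female abdomens and 24 reached 5 CPM, where 482 of 558 did so in 2N male abdomens. In 3N female abdomens 368 were under 1 CPM and 100 reached 5 CPM. Head-specific genes were mostly present in all heads, 134 of 170 at 5 CPM or more in 2N female heads and 154 in 2N male heads.

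**Figure D5:**
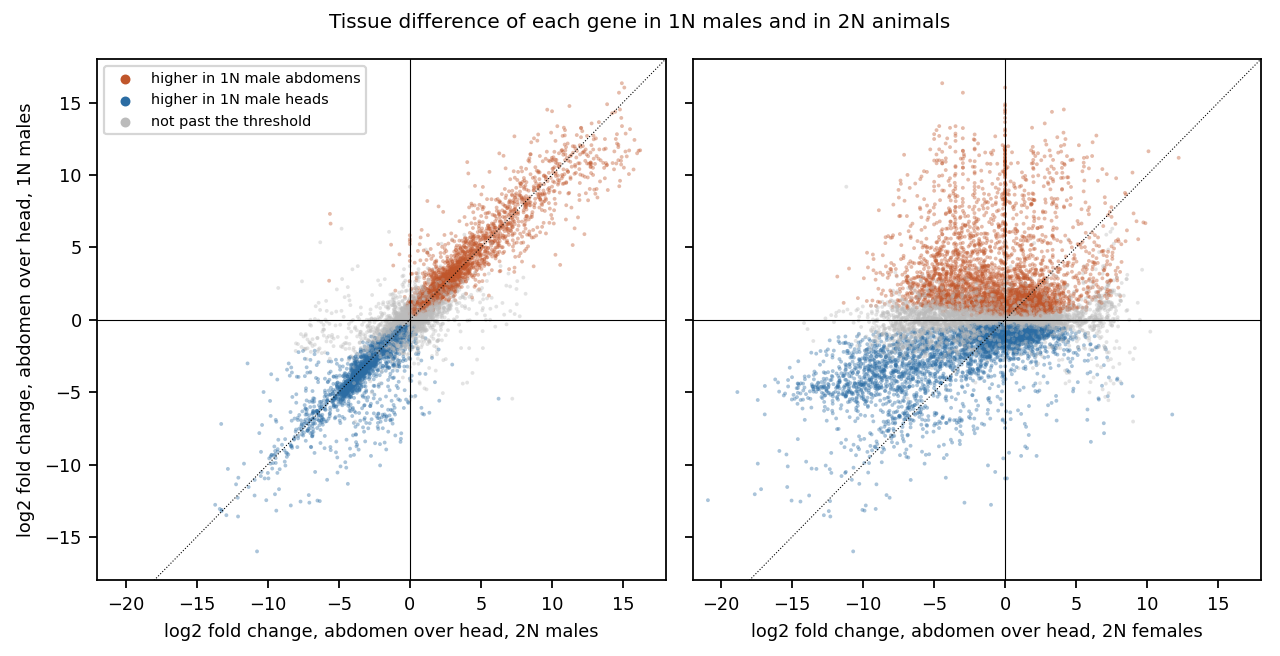
Log2 fold change (abdomen over head) of each of the 12402 genes in 1N males (vertical) against 2N males (left panel) and 2N females (right panel), coloured by the call in 1N males; the dotted line marks equal values and the vertical line of points at 0 in the right panel is of genes without counts in both female tissues; the place of a gene with no count in 1 group depends on the prior count. Points follow the dotted line in 2N males and scatter in 2N females, where 1371 of the genes higher in 1N male abdomens were lower in abdomens.

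Named genes showed each pattern. LOC100123094 had 1629, 2116, 1822, 873 and 2548 CPM in 1N male abdomens and 3.81, 2.21, 3.29, 3.65 and 3.298 CPM in 1N male heads, against 0 to 0.163 CPM in 2N female abdomens and 4.92 to 13.8 CPM in 2N female heads (difference 15.82 ± 0.78 SE, adjusted p = 1.16e-16). Dsx had a log2 fold change of 1.63 in 1N males and -4.39 in 2N females (difference 6.02 ± 0.53 SE, adjusted p = 5.47e-12), with 8.23 to 12.3 CPM in 2N female abdomens and 154 to 257 CPM in 2N female heads. Akhr had 2.91 in 1N males and -4.12 in 2N females (difference 7.04 ± 0.72 SE, adjusted p = 1.65e-10). Dnmt1a had 0.86 and 3.16 (difference -2.298 ± 0.25 SE, adjusted p = 4.66e-10), and Cenp-a -2.54 and 1.705 (difference -4.25 ± 0.35 SE, adjusted p = 1.22e-12). Rpl7a had 1.88 in 1N males and 2.08 in 2N females, a difference that did not pass (-0.2002 ± 0.21 SE, adjusted p = 0.396). CYP9AG7 and LOC100123365, the second picked after its values were seen, were abundant in 1N male heads but not in 2N female heads. CYP9AG7 had 7003 ± 3356 CPM in 1N male heads and 0.0621 ± 0.139 CPM in 2N female heads (n = 5 each). LOC100123365 had 0.944, 0, 0.682, 0 and 0.804 CPM in 1N male abdomens and 341, 344, 802, 413 and 141 CPM in 1N male heads, and 0 to 0.301 CPM in 2N female heads. Of the 22 neuronal genes, 18 had a less negative or higher log2 fold change in 1N males than in 2N females and 1 a lower one. Of the 42 cytochrome P450 genes 36 were higher by this test in 1N males and 4 lower. Of the 16 cell cycle genes, 0 were higher and 14 lower (medians -0.53 and 2.77). By the same test 39.7% of all genes were higher in 1N males and 34.1% lower.

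A smaller set of genes did not tell the tissues apart. 313 genes had a mean of at least 100 CPM in both tissues and lay within 1.2-fold. LOC100119540 (531 ± 80.3 CPM in abdomens, 529.95 ± 78.03 CPM in heads; SD, n = 5 each), LOC100120647 (201 ± 9.67 and 202 ± 22.5 CPM) and LOC100678313 (108 ± 16.1 and 108 ± 38.2 CPM) were the closest to equal. The equality is relative to the TMM scaling: with library totals alone the log2 fold change of LOC100119540 was -0.34, and on the log2(TPM + 1) scale it was -0.67.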

How the data were processed

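RNA of heads and abdomens was sequenced after poly(A) selection, per the labels' protocols. STAR 2.7.11a and RSEM 1.3.1 are listed in the submitters' processing notes, with no role given. Not given in the sources used here are the genome build, the annotation and the strand setting, so reads of overlapping or antisense genes cannot be separated. The authors deposited estimated counts for 14621 genes, not normalized, of which 16.8% of values are not whole; they were rounded, by at most 0.5. A second table deposited by the authors holds TPM for 14613 genes and was used for alternatives, for relative lengths and where TPM is named. All symbols matched the RefSeq table of Nvit_psr_1.1, used for synonyms, biotypes and gene order only. No sequence is printed.

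All 39 libraries in 8 groups were fitted with edgeR 4.0.16 (R 4.3.3; TMM, filterByExpr, quasi-likelihood F test, two-sided), with Benjamini-Hochberg adjustment over 12402 genes and a threshold of 0.05; "rose", "fell", "higher" and "lower" with a count refer to it. Both differences of tissue differences came from the same fit. Log2 fold changes carry an approximate standard error, the size of the log2 fold change over the square root of the test's F statistic. For a gene without counts in a group compared, log2 fold changes depend on the prior count. Levels, the adjusted p or the bound that a group total of 3 counts sets is given instead. Alternatives used DESeq2 1.42.0, limma 3.58.1 on log2 TPM, other scalings, filters, depths and left-out libraries. The fitting code was also run on simulated counts, as a check of the code alone. The standard errors derive from the F statistic of the fit, and so include the spread between libraries. SDs are spreads over libraries, and floors cover counting error only.

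The libraries were taken by their labels; the comparison and 28 gene lists were chosen with earlier results of these data known; lists came from symbols and synonyms, so genes without a descriptive symbol (94.4% of those tested are LOC numbers) are in none. Named genes were, with no overlap and at least 5 CPM, the 10 largest rises and falls with a descriptive symbol, the 6 largest of each among LOC genes from 100 CPM, the 6 genes of highest TPM per tissue, up to 3 members per list and direction, all Hox, sex determination and DNA methylation genes, up to 4 genes per direction of each difference, and the 3 most equal. Other members named were chosen after their values were seen. Lists without a member tested (eye and head patterning) and posterior Hox genes are not analysed here, and an item of the lists is not reported here.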

Additional observations from a re-analysis of the deposited data

Results flagged for a closer look

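The 113 sets of 5 libraries came from 53 genes with values given per library and from library measures. A library was flagged when its gap to the nearest other took over 0.71 of the range. Chance flags about 1 in 20 sets of independent, normal values. The sets here were mostly untransformed CPM of genes partly chosen by their values, and they shared libraries, so that rate does not apply. Where a single library has counts, the gap takes the whole range by construction. This was so for nanos in both tissues, LOC100107367 in abdomens, and Cox6c and LOC100422735 in heads. In 28 sets 1 library was flagged. In abdomens B6A was that library for SP19 (472 CPM), TctexA (419.5 CPM), Cox6c (27.8 CPM), LOC103316717 (5014 CPM), LOC107981331 (279.9 CPM), LOC100113557 (66.0 CPM) and Or1 (2.28 CPM), for the share of TPM in abdomen-specific genes (19.6%) and for the median correlation with its group (0.887). The mean that defined the abdomen-specific class included B6A. Other abdomens stood high for LOC107981322 (B9, 0.430 CPM), LOC100107367 (B9, 0.0561 CPM) and nanos (B7, 0.341 CPM), each at or near single counts.

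In heads B5D stood apart for Dsx (193 CPM), Tra (157 CPM), Or1 (233 CPM), LOC100113557 (6984 CPM), LOC100115642 (3.39 CPM), nanos (0.0956 CPM) and, on the low side, oskar (1.72 CPM) and the median correlation (0.934). B1A stood apart for CPR48 (17530 CPM, high), LOC107981331 (77.9 CPM, high) and Fru (33.4 CPM, low). B3 stood high for CYP9AG7 (12838 CPM) and its total of 41.8 M counts, and for traces of Cox6c (0.0895 CPM), LOC103316717 (0.336 CPM) and LOC100422735 (0.0224 CPM).

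The tissue difference of 1N males differed from that of 2N females in 9152 genes and from that of 2N males in 6 genes by tests of the difference. Among the genes with values given per library, the difference of log2 fold changes (1N males minus 2N females) was positive for nAChRa2 (5.37), Acpr (5.98), ACP (4.81), pros (1.92), LOC100115165 (3.34), CYP4G43 (3.76), SPH103 (9.10), SP50 (8.88), SP19 (9.87), Y-x1c (10.64), Akhr (7.04), Tm1 (1.5), LOC100116930 (9.53), Dsx (6.02), Tra (2.52), Fru (0.83), LOC100123094 (15.82), LOC107981331 (5.0), LOC100117783 (16.60) and LOC100113557 (4.81). It was negative for CYP9AG7 (-11.09), Dnmt1a (-2.30), Mbd (-2.26), Cenp-a (-4.25), oskar (-5.93), Kr (-6.15), LOC100107367 (-11.62) and LOC100123365 (-9.45). Genes with no count in at least 1 of the groups compared have no size given, and their edgeR adjusted p of this difference is in parentheses: Lop1 (0.000181), Dop2 (0.00147), Scr (0.0083), LOC100120898 (0.0227), LOC107981322 (0.0193), CYP6AS33 (0.000173), Cox6c (0.00332), LOC103315575 (2.74e-09), LOC103316717 (0.000132), LOC100115513 (2.43e-13), LOC116416681 (0.000107), LOC100679870 (1.83e-05) and LOC100119680 (4.32e-07). Against 2N males the difference was negative for LOC100107367 (-5.23), LOC100115642 (-6.98) and LOC107981331 (-3.89), and the genes with no count in a group were Kr (0.000375), LOC100115513 (0.00062) and LOC116416681 (0.0266), again with the adjusted p of edgeR.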

How the results depend on the processing

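No paired analysis was possible because the groups share no replicate numbers in the labels. Over the alternatives, the genes called for tissue numbered 5747 to 9152, and 4270 (2251 higher in abdomens, 2019 in heads) when tested against a fold of 2. The split moved with scaling: on the log2(TPM + 1) scale 2432 genes were higher in abdomens and 6233 in heads, with log2(TPM + 0.1) 2398 and 6290, and without a filter 2584 and 6568. Leaving out single libraries gave 7795 to 8098 genes. Abdomen-specific genes numbered 494 to 585 and head-specific genes 162 to 192 on leaving out single libraries, and with a ceiling of 0.5 or 2 CPM in the other tissue 435 or 641 and 101 or 259. The difference from 2N males was called in 6 genes, 1 in thinned counts, 1 in males alone, 43 with DESeq2, and 3 to 9 on leaving out single libraries; the cause was not tested. That from 2N females held at 8935 to 9439. Of the values of named genes under alternatives, 4319 kept direction and side of the threshold, 198 missed it, 11 newly passed and 16 turned or went to 0. Turned were LOC100119540 (-0.34 with library totals, -0.67 on every TPM scale), Ecr (-0.65 on log2(TPM + 1), with and without a filter, -0.69 on log2(TPM + 0.1)), OBP19 (-8.51 in shallow libraries, -0.12 on log2(TPM + 0.1)), and CCE-E7 (-0.97), cycD (-6.38), Hop2 (-5.86), CYP4BW5 (-0.855) and SP122 (-6.21) in shallow libraries, where B6A is the only abdomen. The size for a gene with no count in B6A depends on the prior count there. Or201 in shallow libraries and SP76 in deep ones went to 0, which is not a change of direction. Depth limits genes near 1 CPM, and depth moved with tissue; its part was not tested beyond these fits.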
